A study of Homo sapiens with 12 samples.

Results

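The 3 untreated libraries of wild-type (WT) HGC-27 cells were taken by their sample titles out of 12 libraries in 4 groups of 3, and were described by their levels alone. HGC-27 is an established human line derived from a lymph node metastasis of an undifferentiated gastric carcinoma. The other groups carried a TEAD4KO label, were given the peptide GLUP, or both, and were not compared here. The cells of the 3 libraries were grown in a serum-supplemented medium with glutamine and antibiotics, and the labels give their treatment as none. The study's methods name the storage buffer of the peptide as the negative control, so whether these cells received buffer cannot be told. Nothing in the labels ties the 3 libraries to separate cultures, although the methods speak of biological replicates, so the spread given below may be technical in part.

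Undifferentiated gastric carcinoma is known for losing the glandular architecture and the cell contacts of the stomach lining. Normal gastric epithelium is built from mucus-secreting surface and neck cells, acid-secreting parietal cells, pepsinogen-secreting chief cells and hormone-secreting endocrine cells, held together by E-cadherin, claudins and keratin filaments. In an epithelial to mesenchymal transition such cells give up these junctions under factors of the SNAI, ZEB and TWIST families and take up vimentin filaments. The 3 libraries show which of these programmes is read out in the untreated line.

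Levels were given in FPKM, a scale on which fragments are counted per kilobase of gene and per library total, so that the levels of different genes are compared per length. Of 20345 gene rows, 10982 (54.0%) were at 1 FPKM or more in each of the 3 libraries and are called present. A further 5955 rows (29.3%) were under 0.1 FPKM in each library, of which 3366 were listed at 0 in all 3, and 3408 lay between. Only 464 rows (2.28%) reached 100 FPKM in each library and 33 reached 1000 FPKM. The number of reads behind the values is unknown, so the spread between the 3 libraries is the only measure of precision, and no interval could be given for a value of 0.

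Energy supply and protein synthesis took the largest shares of the FPKM total. The 13 protein-coding genes of the mitochondrial genome, which encode subunits of the respiratory chain and of ATP synthase, held 15.8%, 15.95% and 16.9% of it in libraries 1 to 3. Cytosolic ribosomal protein genes held 11.8%, 12.3% and 11.5%, with 84 of 87 rows present. The 50 highest rows together held 28.2% ± 0.361 (SD, n = 3), and 49 of them were among the 50 highest in every library. They comprised the 13 mitochondrial genes, 16 ribosomal protein genes and 21 others.

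The highest row was MT-ATP6, an ATP synthase subunit, at 7397, 7426 and 7813 FPKM. MT-ATP8 overlaps it on the mitochondrial genome and MT-ND4L overlaps MT-ND4, so the split of fragments within these pairs is uncertain. Library 3 had the highest value for all 13 genes except MT-ND3, and their sum was 60267, 61083 and 63869 FPKM.

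Among nuclear genes, the elongation factor EEF1A1, which delivers aminoacyl-tRNA to the ribosome, was highest, at 2691, 2599 and 2518 FPKM. RPS2 followed at 2234 ± 103 FPKM (SD, n = 3 here and wherever a mean is given with ±), then the glycolytic enzyme GAPDH at 1998 ± 114 and cytoplasmic actin ACTB at 1858 ± 79.1. EEF1A1 and RPS2 did not overlap between libraries, whereas the lowest GAPDH value lay below the highest ACTB value. NDUFB9, an accessory subunit of respiratory complex I, stood at 1748, 1812 and 1666 FPKM, between ACTB and the ferritin heavy chain FTH1 (1619 ± 166). VIM, which encodes the intermediate filament vimentin, was at 1369, 1343 and 1297 FPKM, and only RPS2 and RPL41 among ribosomal protein rows had higher means. Ribosomal protein, EEF1A1, FTH1, ACTB and GAPDH genes have many near-identical processed copies in the genome, and how the counting treated shared reads is not stated in the sources used here.

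**Figure D1:**
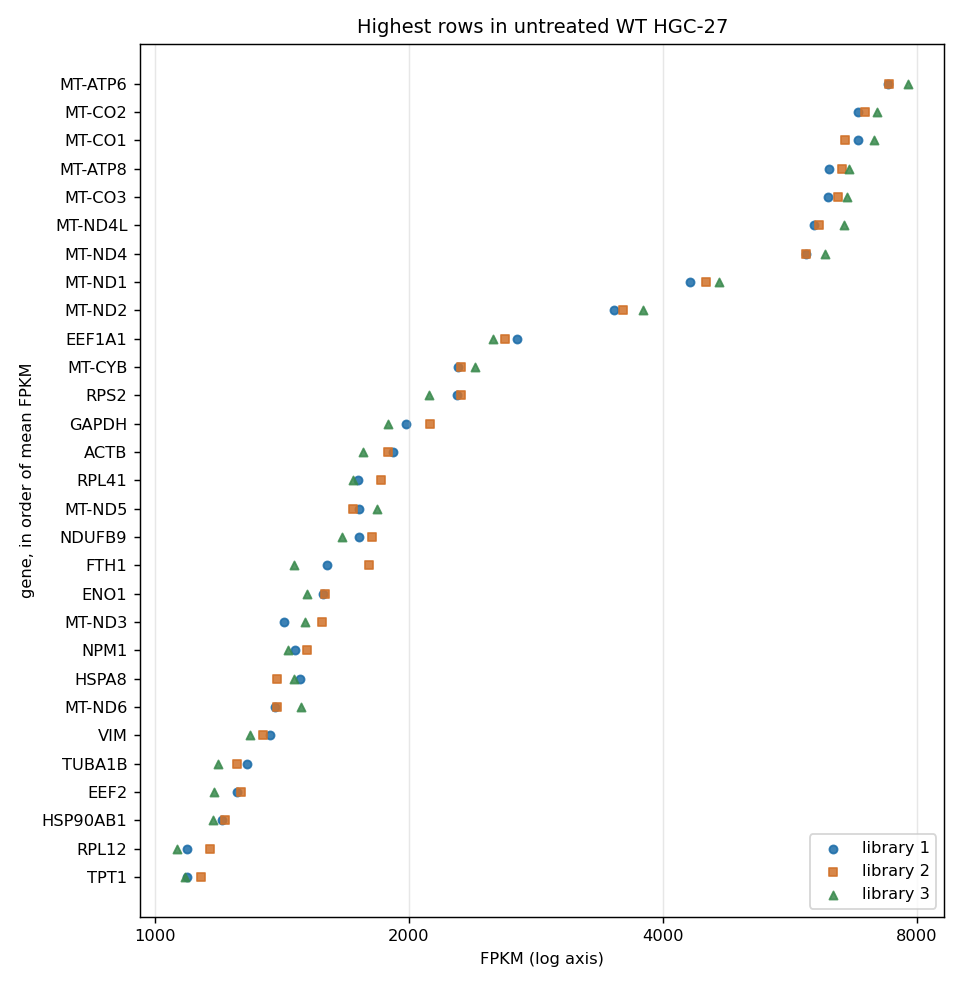
FPKM on a log axis for rows among the 30 with the highest mean, one point per library (circle, square and triangle for libraries 1, 2 and 3). The first 9 rows are mitochondrial genes, EEF1A1 is the first nuclear gene, and the 3 points of a gene lie close together against the range of the axis.

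The labelled cell type was checked against its markers. Against 54.0% of all rows, none of 31 gastric lineage genes, which mark surface mucous, neck, chief, parietal and endocrine cells, was present. Of these, 22 were under 0.1 FPKM in each library and 15 were listed at 0 in all 3, among them the mucin MUC5AC, the trefoil factors TFF1 and TFF2, the gastrokines GKN1 and GKN2, the hormones GAST and SST, and ATP4B, the beta subunit of the acid pump. The highest single value in the 31 genes was 0.988 FPKM, for the ghrelin gene GHRL in library 1, with 0.517 and 0.696 in the other two. CLDN18, whose stomach isoform seals the gastric barrier, stood at 0.120, 0.128 and 0.0487 FPKM. The summed level of the 31 genes was 2.41, 1.27 and 1.93 FPKM, so no differentiated stomach cell type could be read from these libraries. A limit of 0.5 FPKM, or of 1 after each library was rescaled to a sum of 1000000, made 1 of the 31 present.

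Transcription factors of gastric identity were present in part. KLF5, a factor of gut epithelium that is amplified in some gastric cancers, was at 34.3, 31.7 and 32.9 FPKM. RUNX3 (6.29 ± 0.231 FPKM), GATA4 (4.92 ± 0.319) and GATA6 (3.57 ± 0.197) were also present, as were HNF4G and ONECUT2. SOX2, which specifies the anterior stomach, had a mean of 0.0109 FPKM, HNF4A 0.0332 and FOXA2 0.175, and the stomach mesenchyme factor BARX1 was listed at 0 in all 3 libraries. Of the 16 factors on the list 15 had a row and 6 were present, against 54.0% of all rows.

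Against 54.0% of all rows, 7 of 30 pan-epithelial genes were present. They were the tight junction scaffold TJP1 (22.5, 21.7 and 24.7 FPKM), the membrane mucin MUC1 (9.17 ± 0.633), the keratins KRT8 (5.34 ± 0.247) and KRT7 (2.43 ± 0.0459), the E-cadherin gene CDH1 (3.68, 2.99 and 3.17 FPKM), CLDN7 (1.43 ± 0.240) and the desmosomal DSP (1.41 ± 0.0945). EPCAM, an adhesion molecule of most carcinomas, stood at 0.116, 0.0959 and 0.0298 FPKM. KRT18, the usual filament partner of KRT8, was at 0.215, 0.290 and 0.0943 FPKM, and KRT19 was listed at 0 in 2 libraries and at 0.0459 in the other. KRT8 was thus 25.8, 17.5 and 57.3-fold higher than KRT18 in the 3 libraries, a wide spread that rests on the low KRT18 values, although their genes lie next to each other and overlap on opposite strands. The splicing regulators ESRP1 (0.146 ± 0.126) and ESRP2 (0.606 ± 0.172), and the epithelial factors GRHL2 (0.00559 ± 0.00492) and OVOL1 (0.0187 ± 0.0203), were not present. After each library was rescaled to a sum of 1000000, 12 of the 30 reached 1 in each.

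Mesenchymal genes were present in 16 of 20 cases, against 54.0% of all rows. Their summed level was 2056, 2046 and 1974 FPKM against 51.5, 50.4 and 54.3 FPKM for the 30 epithelial genes. VIM alone gave 1369, 1343 and 1297 FPKM of the mesenchymal sum. The median over the members was 17.2 FPKM in the mesenchymal list and 0.288 FPKM in the epithelial list. VIM was 251 ± 13.1-fold higher than KRT8. S100A4, a calcium-binding protein of motile cells, was at 201, 212 and 190 FPKM, the limb and craniofacial mesenchyme factor PRRX1 at 93.4, 86.8 and 98.8 FPKM and TWIST1 at 82.2, 77.5 and 75.2 FPKM. The SNAI and ZEB factors on the list, which repress CDH1, were all present. ZEB1 was at 18.3 ± 0.873, SNAI2 at 16.04 ± 0.0788, SNAI1 at 11.2 ± 0.947 and ZEB2 at 5.66 ± 0.314. The 4 members that were not present were CDH2, the N-cadherin gene that often replaces CDH1 (0.0346, 0.0694 and 0.0609 FPKM), CDH11, FOXC2 and TWIST2. The highest classical cadherin was instead CDH6, a cadherin of kidney and neural crest, at 54.6, 48.1 and 55.1 FPKM, which was 16.1 ± 1.28-fold higher than CDH1.

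Genes that define fibroblasts and their matrix were present in 9 of 10 cases, against 54.0% of all rows. COL3A1 and COL1A1, chains of fibrillar collagens III and I, were at 307 ± 6.75 and 258 ± 8.33 FPKM, the matrix protein POSTN at 139.7, 128.6 and 142.6 FPKM, and the small proteoglycans DCN and LUM at 57.0 ± 1.66 and 51.8 ± 2.82 FPKM. THY1, PDGFRA and FAP stood at 22.0 ± 1.35, 5.98 ± 0.211 and 3.36 ± 0.448 FPKM. PDGFRB remained under the limit in every library, at 0.909, 0.993 and 0.990 FPKM. Bulk RNA cannot tell few cells with much of a transcript from many cells with little, and whether the epithelial and the matrix transcripts came from the same cells was not tested. The summed fibroblast list varied from 821 to 864 FPKM among the libraries.

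Markers of leukocytes and vessel cells were near 0, and each list count given next stands against 54.0% of all rows. Of 6 erythroid and platelet genes 2 were present, the alpha globins HBA1 and HBA2. None of 7 endothelial genes was present, with KDR and CDH5 listed at 0 in all 3 libraries, and none of 14 leukocyte genes, with PTPRC at 0.149 ± 0.0186 FPKM and CD3D, CD3E and MS4A1 listed at 0. The hepatocyte list had 0 of 8 members present and the squamous list 0 of 8. Of 16 intestinal genes 2 were present, among them the homeobox factor CDX2 at 1.23 ± 0.153 FPKM. Among neural and melanocytic genes 3 of 9 were present, TUBB3 (43.0 ± 2.88), MITF (7.04 ± 0.530) and NCAM1 (5.63 ± 0.642), whereas SOX10 was under 0.1 FPKM on average.

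**Figure D2:**
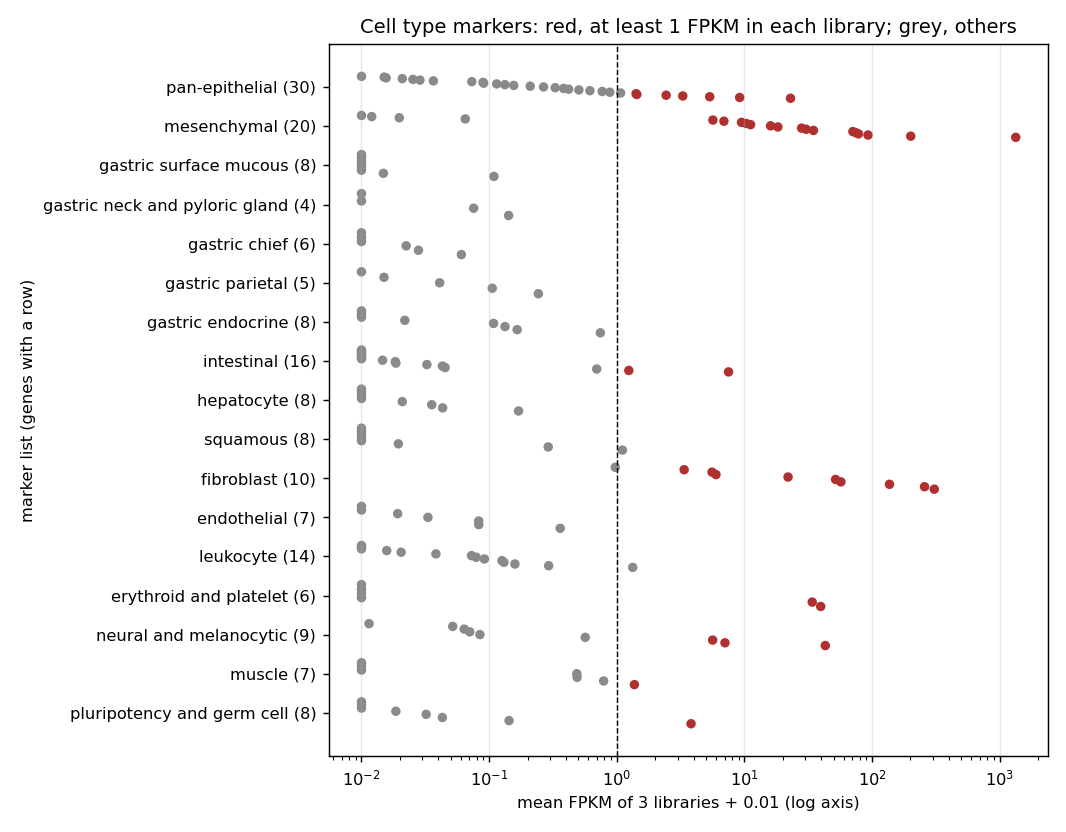
Mean FPKM of 3 libraries plus 0.01, on a log axis, for every marker with a row, by cell type list (number of genes in brackets). Red points were at 1 FPKM or more in each library and grey points were not. The mesenchymal and fibroblast lists lie mostly right of the dashed limit of 1 FPKM, and the 5 gastric lists lie wholly left of it.

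Gene families differed in how many members were present, against 54.0% of all rows. All 8 SMAD rows, all 8 ephrin rows and 84 of 87 ribosomal protein rows were present. Of 55 keratin rows 5 were present, led by KRT4 at 18.4, 20.6 and 16.7 FPKM, and 34 were listed at 0. Of 17 mucins only MUC1 was present, and of 24 claudins CLDN15 (10.0 ± 0.247), CLDN12 (8.88 ± 0.820) and CLDN7. Of 43 collagen rows 16 were present, with a summed level of 863 ± 22.3 FPKM. Among actins ACTB was 2.81 ± 0.0935-fold above ACTG1, and the smooth muscle actin ACTA2 stood at 65.5, 77.4 and 69.4 FPKM. Olfactory receptors, which serve as a family with no known use in this tissue, had 0 of 354 rows present and 298 listed at 0.

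Some close relatives differed by far more than the spread between libraries. Collagen I is a trimer of 2 COL1A1 chains and 1 COL1A2 chain, yet COL1A1 was 45.8, 50.6 and 43.3-fold higher than COL1A2, which stood at 5.80, 4.93 and 5.99 FPKM. S100A4 at about 201 FPKM lies in a row of S100 genes on chromosome 1, where its neighbours S100A5 (0.417 FPKM on average) and S100A6 (0.312, 0.218 and 0.266 FPKM) were not present and S100A3 was at 2.48. S100A6 encodes a calcium-binding protein found in most mesenchymal and epithelial cells. Thymosin TMSB10 was 8.43 ± 0.219-fold above TMSB4X, another actin-sequestering thymosin, whose gene is on the X chromosome. These pairs were picked after the values were seen.

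The sequence before the canonical transcript start of 2 of these genes is shown because COL1A2 stood far below its partner chain while S100A4 stood above its neighbours. Each run is the 250 bases before the start of the Ensembl canonical transcript, read 5′ to 3′ on the gene's strand from GRCh37, and capitals mark TATAAA (the core of the box bound by the TATA-binding protein), CCAAT (the box known from nuclear factor Y) and GGGCGG (the box known from the SP1 factor) on either strand, with overlapping matches joined. The windows are chr7:94023957-94024206 (plus strand) and chr1:153518283-153518532 (minus strand).
COL1A2: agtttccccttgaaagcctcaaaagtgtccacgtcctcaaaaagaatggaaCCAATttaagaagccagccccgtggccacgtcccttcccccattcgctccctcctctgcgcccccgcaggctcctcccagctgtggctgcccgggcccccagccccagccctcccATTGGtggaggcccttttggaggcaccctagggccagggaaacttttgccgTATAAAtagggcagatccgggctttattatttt
S100A4: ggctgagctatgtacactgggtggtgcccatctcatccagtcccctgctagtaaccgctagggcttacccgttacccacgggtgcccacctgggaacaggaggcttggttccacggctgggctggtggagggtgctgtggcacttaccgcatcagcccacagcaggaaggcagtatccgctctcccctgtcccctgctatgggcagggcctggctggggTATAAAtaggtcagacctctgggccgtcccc

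Both windows held 1 TATAAA, which stood in 8.96% of the 19295 windows of this length read for rows of the table. The COL1A2 window had 9 CG dinucleotides, no GGGCGG and 2 CCAAT matches, a motif held by 34.1% of windows. The COL1A1 window was not set beside it, so the 2 partner chains were not compared in these features. The S100A4 window held 7 CG dinucleotides, and that of S100A6 24 with 3 GGGCGG matches. Of these neighbours, the window of the abundant gene was therefore the one with fewer CG dinucleotides. Both S100 windows lie inside the annotated spans of their genes, which begin further upstream than the canonical transcript.

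Across all genes these features differed with the level. Windows of genes listed at 0 in all 3 libraries held a median of 4 CG dinucleotides (quartiles 1 and 11, 2971 genes), those under 0.1 FPKM 7.5, those at 1 to 10 FPKM 22 (15 to 29, 5298 genes), those at 10 to 100 FPKM 23 (17 to 30) and those at 100 FPKM or more 22.5 (17 to 28, 448 genes). GGGCGG, which itself contains a CG, was found in 26.9% of windows of genes listed at 0 and in 72.2%, 75.04% and 72.8% of the 3 present classes. TATAAA was found in 21.2% of windows at 0, in 4.34% and 4.13% at 1 to 10 and 10 to 100 FPKM, and again in 12.9% at 100 FPKM or more. These are matches of letters, and genes are not independent replicates.

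Of 26 suppressors of gastric cancer 22 were present, against 54.0% of all rows. Among those below the limit, TGFBR2, the type II receptor for TGF-beta, stood at 0.401, 0.250 and 0.245 FPKM, RNF43, a ubiquitin ligase that removes Wnt receptors, at 0.277 ± 0.0623 and the fragile-site gene FHIT at 0.895 ± 0.253. The cell cycle inhibitor CDKN1A was at 6.89 ± 0.130. CDKN2A, which encodes the cell cycle inhibitors p16 and ARF and is often lost in cancer lines, was high at 112, 104 and 97.1 FPKM. RHOA (149 ± 1.55), CTNNA1 (87.0 ± 2.64), RB1 (15.2 ± 0.385), ARID1A (16.6 ± 1.05), SMAD4 (10.8 ± 0.309) and APC (10.9 ± 0.234) were present in all 3 libraries. A level of RNA does not show whether the coding sequence is intact.

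Among 24 oncogenes and receptors 20 were present, against 54.0% of all rows. MYC, the growth factor-driven transcription factor, was at 109, 110 and 106 FPKM. The cyclin CCND1 (78.6 ± 1.52) and its kinase CDK4 (68.5 ± 3.98) followed, and CCND2, not on the list, was at 100.2, 99.3 and 102.6 FPKM. The RAS genes NRAS and HRAS stood close together at 26.8 ± 0.833 and 20.4 ± 1.17 FPKM, with values that did not overlap. Of the ERBB receptors only ERBB2 was present, at 20.04, 18.2 and 19.7 FPKM, with EGFR at 0.535, 0.555 and 0.546 and ERBB3 at 0.201 ± 0.0616. FGFR3 (16.8 ± 1.30), FGFR4 (15.1 ± 0.951) and FGFR2 (11.0 ± 0.552) were present and FGFR1 was not (0.174 ± 0.0595), while none of 22 FGF ligand genes was present. MET, the receptor of HGF, was at 4.86 ± 0.0996 FPKM and HGF itself at 0.182 ± 0.0281.

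MYC lay near the end of the stretch of the genome with the highest levels. Its nearest protein-coding genes in that stretch were low, with means of 1.64 FPKM for LRATD2, 0.0769 for POU5F1B and 0 for GSDMC. When 18706 overlapping windows of 15 adjacent protein-coding genes were ordered by their median, the 20 highest all lay on chromosome 8 and together spanned 37 genes from TAF2 to GSDMC (GRCh37 120743014 to 130798870, 10.1 Mb). Neighbouring windows share most of their genes, so the 20 describe the same stretch and are not separate results. In that span 14 genes (37.8%) were at 100 FPKM or more in each library, against 2.35% of 19028 protein-coding rows, and the median was 51.9 FPKM. The 37 genes before it had a median of 3.84 FPKM and 2 at 100 or more, and the 37 after it a median of 0.288 and none at 100 or more. The highest window elsewhere, on chromosome 19, had a median of 45.9 FPKM. The span was found by its level, so these counts describe it and test nothing.

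Within it the 14 high genes served unrelated functions. NDUFB9 was the highest, and the chromatin ATPase ATAD2 (347, 334 and 349 FPKM), SQLE, which makes squalene epoxide for cholesterol synthesis (263, 271 and 252 FPKM), the zinc finger homeobox factor ZHX1 (248, 234.1 and 238 FPKM) and NSMCE2, a SUMO ligase of the SMC5/6 complex (235, 242 and 234.5 FPKM), came next together with TATDN1 and FAM91A1. MRPL13 of the mitochondrial ribosome (207 ± 6.07), TAF2 of the general factor TFIID (142 ± 4.61) and DERL1 of endoplasmic reticulum quality control (140 ± 2.75) also passed 100 FPKM. The spread of the 14 genes was small, with coefficients of variation (CV, the SD as a share of the mean) from 1.43% to 4.19%. Not every gene of the span was read, since 9 of 37 were under 1 FPKM in at least 1 library, and ZHX2 (0.0379 ± 0.00712), the stem cell factor copy POU5F1B (0.0769 ± 0.0180) and GSDMC, listed at 0, were under 0.1 in each. NDUFB9 overlaps MTSS1 on the opposite strand and ZHX1 shares exons with the readthrough row ZHX1-C8orf76, so fragments in the shared parts are uncertain.

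**Figure D3:**
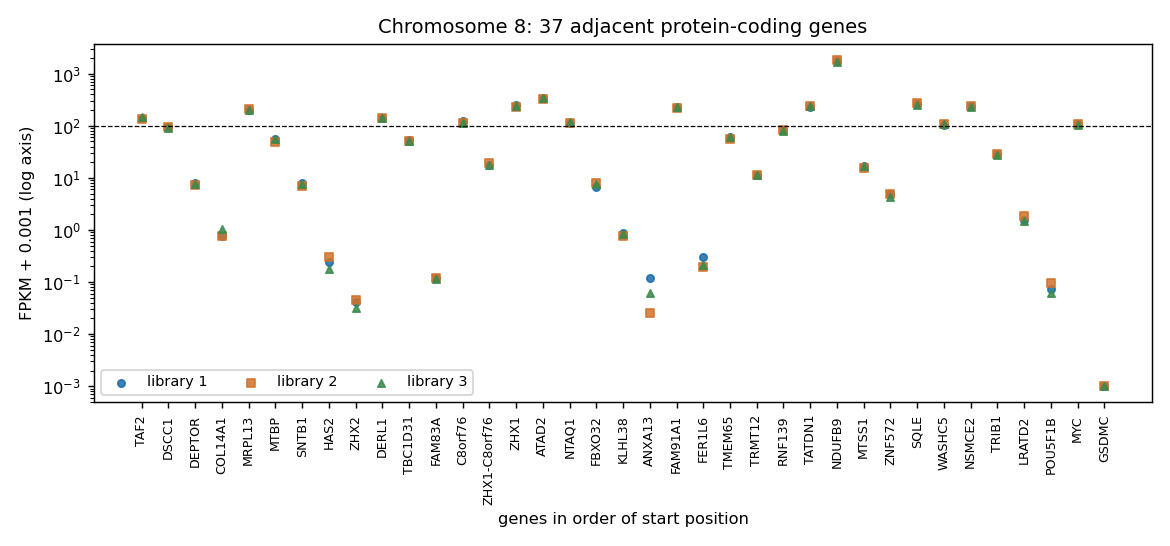
FPKM plus 0.001, on a log axis, in each library for 37 adjacent protein-coding genes in order of start position on chromosome 8 (dashed line at 100 FPKM). Genes at 100 FPKM or more lie among genes at lower levels, and 3 of the 37 were under 0.1 FPKM in each library.

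Surface proteins that serve as drug targets were present in 11 of 22 cases, close to the 54.0% of all rows. CD276, an immune checkpoint ligand, was highest at 36.6, 41.1 and 39.6 FPKM, followed by mesothelin MSLN at 24.97, 23.9 and 24.3 FPKM and ERBB2. The don't-eat-me signal CD47 was at 17.9 ± 2.28 FPKM, EPHA2 at 14.2 ± 0.309 and the folate receptor FOLR1 at 5.40 ± 0.514. CD274, which encodes PD-L1, stood at 0.142, 0.116 and 0.176 FPKM, and CEACAM5 and MUC16 were listed at 0. In antigen presentation B2M (181, 179 and 168 FPKM) was present, with HLA-B at 16.1 ± 0.777 and HLA-C at 7.02 ± 1.05, whereas the class II genes HLA-DRA and HLA-DRB1 were at or near 0. HLA genes are highly polymorphic, so their levels depend on how reads fit the reference alleles.

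Genes normally confined to the germ line were present in 12 of 29 cases, against 54.0% of all rows. CTAG2 stood at 121, 128 and 113 FPKM, MAGEA4 at 77.7, 76.3 and 71.9 FPKM and PRAME at 24.6 ± 0.301. MAGEA3 (60.8 ± 3.28) and MAGEA6 (62.1 ± 2.19), CTAG1B and CTAG2, and XAGE1A and XAGE1B are near-identical copies, and the division of reads among them is uncertain. The other members were near 0, with 13 listed at 0 in all libraries, among them MAGEC1, MAGEC2, SSX1 and SYCP1. Of the oncofetal genes, HMGA1, an architectural chromatin protein, was at 309 ± 11.4 FPKM, the RNA-binding proteins IGF2BP1, IGF2BP2 and IGF2BP3 at 21.3 ± 0.719, 27.4 ± 0.510 and 29.0 ± 1.71 FPKM, and LIN28B, which blocks let-7 maturation, at 4.35 ± 0.123. LIN28A, AFP and SALL4 were not present.

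Genome maintenance genes were nearly all present, against 54.0% of all rows. In mismatch repair 7 of 8 genes were present, with MSH6 at 29.5 ± 2.36 FPKM, and MLH3 was not (0.0932 ± 0.0592), although its neighbours EIF2B2 and ACYP1 were at 36.8 and 10.8 FPKM. All 13 homologous recombination genes were present, from CHEK1 at 23.1 ± 0.659 to BARD1 at 4.34 ± 0.271 FPKM. The telomerase subunit TERT stood at 0.440, 0.580 and 0.473 FPKM and dyskerin DKC1 at 108 ± 2.37. Of 18 SWI/SNF chromatin remodelling genes 17 were present, with the ATPase SMARCA4 at 7.57 ± 0.250-fold above its alternative SMARCA2, and all 16 matched genes of DNA methylation and Polycomb were present, with DNMT1 at 111 ± 1.44 FPKM and EZH2 at 41.1 ± 1.34, 12.6 ± 1.32-fold above EZH1.

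In glucose metabolism, of 30 genes 23 were present, against 54.0% of all rows. The list held 1.99% ± 0.0618 of the FPKM total, led by GAPDH and ENO1 (1585, 1591 and 1516 FPKM). LDHB, the lactate dehydrogenase subunit of aerobic tissues, was at 789, 800 and 771 FPKM and LDHA at 689, 603 and 629 FPKM, and the 2 did not overlap. HK2, an inducible hexokinase, was 2.43 ± 0.0873-fold above HK1, the transporter SLC2A3 1.59 ± 0.0725-fold above SLC2A1, and the lactate carrier SLC16A1 (66.1 ± 0.222 FPKM) stood against SLC16A3 at 1.08, 1.61 and 1.39 FPKM. Genes of glucose production, PCK1 and FBP1, were at or near 0. In drug handling GSTP1 (194 ± 11.2 FPKM), CYP1B1 (94.4 ± 4.73) and NQO1 (93.4 ± 6.07) were high, and the efflux pump ABCB1 was at 0.0788 ± 0.0332.

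Secreted signals were led by a few genes. MIF (170 ± 13.5 FPKM), CCL2, a chemoattractant of monocytes (104, 119 and 100.5 FPKM), the Wnt antagonist DKK1 (74.1, 85.7 and 73.1 FPKM), midkine MDK (61.8 ± 1.43) and BMP4 (48.8 ± 4.33) led 41 growth factors and cytokines. Of the 41, 16 were present, against 54.0% of all rows. Of 36 chemokines only CCL2 and CXCL14 (3.39 ± 0.224) were present, and of 38 interleukins IL32 (12.7 ± 2.10), IL17D and IL34. In innate sensing STING1 was at 18.1 ± 0.670 FPKM while CGAS, which makes its ligand, was at 0, 0.0473 and 0.0933, and MAVS (13.6 ± 0.907) was present without IFIH1 or AIM2. Among proteases MMP14 (40.1, 40.2 and 39.1 FPKM) and MMP2 (10.4 ± 0.205), which it activates, were present, and MMP1, MMP3, MMP7 and MMP9 were not.

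Among 277 transcription factor rows of 16 families, 147 were present, a share close to the 54.0% of all rows. MYC, PRRX1 and TWIST1, with means of 108, 93.0 and 78.3 FPKM, are not in these families and stood higher than every row in them. The ranks that follow are within the 16 families. The retinoic acid receptor RARG was highest at 65.2, 63.0 and 58.9 FPKM, then the proliferation factor FOXM1 at 53.0, 52.2 and 52.3 FPKM, STAT6 (45.2 ± 0.976), JUNB (43.99 ± 3.98), LHX9, a LIM homeobox factor of gonad and limb (43.1 ± 2.81), SOX4 (35.2 ± 1.51) and DLX3 (34.9 ± 1.70). FOXM1 and STAT6 did not overlap, whereas JUNB, LHX9 and STAT6 did, so their order is not resolved by 3 libraries. All 6 DLX factors, which pattern the face, limb and skin, were present, down to DLX5 at 3.47 ± 0.153 FPKM. The TEAD factors, of which the study targets TEAD4, stood at 31.8 ± 1.59 for TEAD1, 25.1 ± 0.709 for TEAD4, 13.3 ± 0.693 for TEAD2 and 8.22 ± 0.607 for TEAD3. Their coactivators YAP1 (34.6, 32.0 and 41.7 FPKM) and WWTR1 (18.99 ± 0.507) were present.

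HOX genes, which record position along the body axis, were present in 22 of 39 cases, also close to the 54.0% of all rows. Of the 16 genes of paralogue groups 9 to 13, which are used in posterior and distal structures, 13 were present with a summed mean of 105.9 FPKM, against 9 of 23 and 39.2 FPKM in groups 1 to 8. HOXA13, of hindgut and distal limb, was highest at 25.8, 26.9 and 27.8 FPKM, followed by HOXC10 (22.2, 19.9 and 22.7 FPKM), HOXD10 (10.5 ± 1.12) and HOXA11 (9.55 ± 0.721). The HOXB cluster was lowest in groups 9 to 13, with HOXB13 at 3.07 ± 0.189 and HOXB9 at 2.89 ± 0.0364 FPKM. HOXC12 and HOXD12 were not present although genes on both sides of them were.

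**Figure D4:**
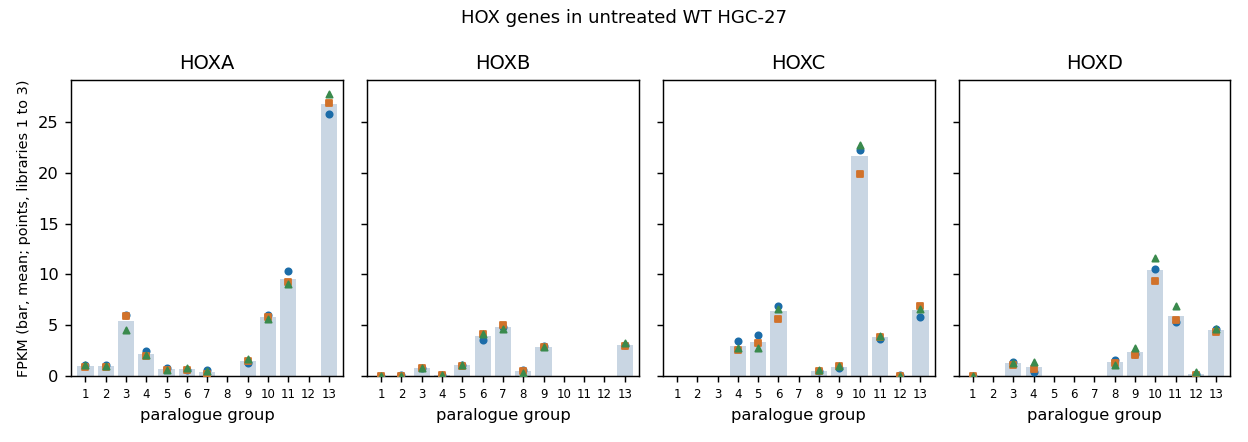
FPKM of the HOX genes by cluster and paralogue group (bars, mean of 3 libraries; points, libraries 1 to 3; positions without a bar have no gene or a level near 0). HOXA13 and HOXC10 stand above all other HOX genes in every library.

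The 3 libraries agreed closely. Over the 11203 rows whose mean reached 1 FPKM, the correlation of log2(FPKM + 1) was 0.9958 between libraries 1 and 2, 0.9952 between 1 and 3 and 0.9947 between 2 and 3, as a description across genes, which are not independent replicates. The median CV was 5.30%, 81.8% of rows had a CV under 10% and 148 rows (1.32%) had one over 30%. The spread fell with the level, from a median CV of 11.4% at 1 to 2 FPKM to 5.90% at 5 to 10 and 3.37% at 100 FPKM or more. No library stood apart, since the SD of the deviations from the gene mean was 0.0868, 0.0929 and 0.0981 on the log2(FPKM + 1) scale. All 16 reference genes used to scale expression assays were present, with CVs down to 0.828% for HPRT1 and up to 13.6% for PPIA.

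The most and least even genes were of different kinds. Among 8117 rows whose mean reached 5 FPKM, 31 had a CV over 30%, and 17 of these (54.8%) overlapped another row on the same strand, against 8.70% of the 8117. UPK3BL1, a uroplakin-like gene of a duplicated region, was at 10.2, 0.0251 and 20.2 FPKM, and NPIPB3, of a family of recent duplicates, at 9.08, 7.72 and 21.4 FPKM. IFI30, a lysosomal thiol reductase, stood at 67.5, 66.1 and 21.9 FPKM, and the row ENSG00000268173 that spans it at 0, 1.76 and 23.3 FPKM, with sums of 67.5, 67.9 and 45.2. TOMM6, of the mitochondrial import pore, was at 83.5, 33.1 and 89.6 FPKM while the row overlapping it, ENSG00000124593, was at 7.05, 16.7 and 4.89 FPKM, with sums of 90.5, 49.9 and 94.5. In both pairs the library low in one row was high in the other, and the sum was lowest where IFI30 or TOMM6 was lowest. Each value is scaled to the length of its own row, so the sums cannot show whether fragments moved between rows. SKIL, a repressor of SMAD signalling with no such overlap, was at 14.9, 7.69 and 8.02 FPKM. The most even was SETD3, an actin histidine methyltransferase, at 38.2, 38.1 and 38.2 FPKM (CV 0.0924%), followed by INF2, RCC2, ADAM10 and COL16A1, with CVs from 0.103% to 0.136%. With 3 libraries and 8117 rows the lowest CVs are picked from many.

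In all, 11 rows were listed at 0 in at least 1 library and at 1 FPKM or more in another. ENSG00000268173, given above, is among them, and 7 of the 11 carry the joined name of 2 neighbouring genes. BLOC1S5-TXNDC5, for example, was at 0, 0 and 10.2 FPKM, and HSPE1-MOB4 at 2.97, 0 and 0.0925 FPKM. The rows with joined names overlap the rows of their single genes, so an exact 0 there does not show that the shared exons were without reads.

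**Figure D5:**
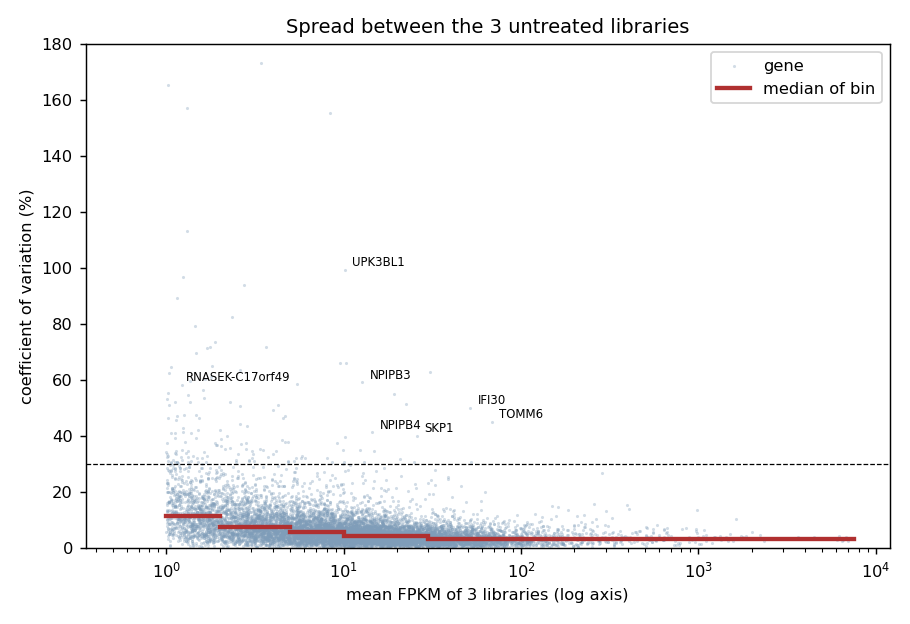
Coefficient of variation between the 3 libraries against the mean FPKM (log axis), one point for each row whose mean reached 1 FPKM, with the median of each level bin as a red line and a dashed line at 30%. The bin medians fall from 11.4% to 3.37%, and the labelled rows are the 7 with a symbol that have the highest CV among those with a mean of at least 5 FPKM.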

How the data were processed

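RNA was sequenced from 3 untreated WT HGC-27 samples of a series of 12. The authors analysed the reads on the Majorbio cloud platform and deposited FPKM values, 1 row per Ensembl gene and 1 column per sample, with no pooling. The submitters' processing notes name HISAT2, Cufflinks, RSEM and hg19 without versions or roles. Fragments are scaled to gene length and library total, so abundant genes lower all others, and depth is unknown. Strand use and the handling of shared reads are not given in the sources used here.

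Columns were matched to samples by title. Symbols (94.2% of rows) and positions (96.5%, GENCODE 44 lifted to GRCh37) were looked up by Ensembl identifier. Means, SDs and CVs were computed in Python 3.11.15 with pandas 2.3.3, without a test, and the CV summary was tested on simulated data. A gene was present at 1 FPKM or more in each library. Windows of 250 bases before the canonical start were read from GRCh37 for 94.8% of rows. Y-linked genes and some other genes and sequences were not reported here.

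Named were the 30 highest rows with a symbol, members of fixed lists and up to 6 of each family. The 20 highest transcription factors of 16 families were named too, as were the 10 highest rows not annotated as protein coding. For the spread, the 15 highest and 10 lowest CVs among means of at least 5 FPKM were named. Rows at 0 in at least 1 library and at 1 or more in another were also named. The members, lists and rules were chosen with earlier results of these data known. The genomic stretch, neighbours, promoter windows and pairs of relatives were chosen after their values were seen. Alternatives changed the limit, scale, filter, pseudocount or libraries.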

Additional observations from a re-analysis of the deposited data

How the results depend on the processing

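No paired analysis was possible because the results come from no test and from 1 group. Of 66 alternatives over 9 results, 46 left the value within 1.5-fold of the main count or within 1 SD of it. The 8 alternatives for genes present gave 9956 to 12018, and all 7 for the mesenchymal list gave 16. Pan-epithelial markers present ranged from 5 at a limit of 2 FPKM to 12 on a scale where each library sums to 1000000. Gastric lineage markers present rose from 0 to 1 at a limit of 0.5 FPKM and on that scale. Without the mitochondrial rows the 50 highest rows held 17.1% and ribosomal proteins 14.1% of the total. The lowest correlation was 0.9972 with no filter, 0.9940 for means of at least 5 FPKM, 0.9919 with a pseudocount of 0.1 and 0.9939 by rank, and 0.9947 to 0.9959 with each library left out. The median CV was 8.08% with no filter, 4.50% for means of at least 5 FPKM, 4.67% from the SD of log2(FPKM + 1), and 4.02% to 4.75% with each library left out, where a CV rests on 2 libraries. Rows with a CV over 30% numbered 4010 with no filter, 31 for means of at least 5 FPKM and 54 from log2(FPKM + 1). The unknown depth limits every value near 0.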

Other observations

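The alpha globin genes HBA1 and HBA2, which supply haemoglobin in red cells, stood at 41.3, 44.1 and 33.4 FPKM and at 38.3, 30.9 and 32.8 FPKM. Their neighbours HBZ and HBM and the beta globin gene HBB were listed at 0 in all 3 libraries, and HBQ1 had a mean of 0.152 FPKM. HBA1 and HBA2 have near-identical coding sequences, so the division between them is uncertain. Both lie between genes at common levels, NPRL3 at 19.4 FPKM and LUC7L at 32.0 FPKM.

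Few rows of other types than protein coding were in the table. Of 436 rows annotated as lncRNA 43 were present, against 54.0% of all rows. SNHG32, a host gene of small nucleolar RNAs, was the highest at 146, 156 and 147 FPKM. The pseudogene rows C19orf48P (60.3, 53.9 and 60.02 FPKM) and TRIM16L (39.5, 43.6 and 40.4 FPKM) followed. DLEU1, a long noncoding RNA of chromosome 13, was at 16.1 ± 1.67 FPKM (SD, n = 3).

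The histone family was picked by gene name, so other histone genes may be left out. It held 39 rows, of which 15 were present, against 54.0% of all rows. Its highest member was H2BC12 at 67.4, 71.3 and 61.6 FPKM. The median level of present genes differed little among chromosomes, from 8.54 FPKM on chromosome 3 to 12.9 FPKM on chromosome 11, and chromosome 8 as a whole stood at 11.2 FPKM.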
